A study of Drosophila melanogaster with 9 samples.

Results

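The sodium pump subunit genes Atpalpha, nrv1, nrv2 and nrv3, the voltage-gated sodium channel gene para and the hyperpolarization-activated channel gene Ih were examined in nuclear RNA of Drosophila photoreceptors. The 6 genes were chosen by name, and each was found by its FlyBase identifier among the 13947 genes counted. RNA came from 3 libraries of photoreceptors that expressed shSet2, an shRNA against the H3K36 methyltransferase gene Set2, labelled replicates 1, 2 and 3. Male flies were aged to 10 days after eclosion and collected at zeitgeber time 6, in hours after lights on. Their genotype carried w, UAS-GFP-Msp300KASH at attP2 and rh1-GAL4 with ry[506], together with the RNAi transgene that GEO's labels call UAS-siSet2. The rh1-GAL4 driver is active in outer photoreceptors from late pupal life. Tagged nuclei were pulled out of head homogenates through GFP on the nuclear membrane. A single shSet2 line was used, so its effects and those of Set2 loss cannot be told apart. Libraries from photoreceptors with the mCherry control shRNA, and all ATAC-seq libraries, were not analysed here. Every value below is therefore a level in shSet2 photoreceptors and none is a change caused by Set2.

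The sodium pump is a membrane enzyme that uses ATP to move sodium out of the cell and potassium in. Its alpha subunit carries out transport and its beta subunit is needed for assembly and delivery to the plasma membrane. Fly photoreceptors take up sodium and calcium through light-gated channels, so that the pump and the sodium/calcium exchanger restore the resting ion gradients. Voltage-gated sodium channels carry action potentials along axons, whereas photoreceptors signal with graded potentials. Channels of the Ih type open when the membrane is hyperpolarized and pass a mixed sodium and potassium current.

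The libraries held 3657491, 3794547 and 4960498 counts. The targeted gene Set2 had 313, 370 and 369 counts, and no control level was at hand to set beside them. Counts were expressed as CPM, each gene's count per 1e+06 counts of its library, on library totals adjusted by edgeR's TMM method. A count of 3, used as the floor of detection, was worth at most 0.813 CPM. Photoreceptor markers, listed under outer photoreceptors, were all abundant. Of ninaE, trp, trpl, norpA, inaD, ninaC and Arr2, 7 of 7 passed the minimum of 10 counts in every library. They ran from 932 CPM for inaD to 16942 CPM for norpA, and their summed level lay between 56642 and 59137 CPM. Whether this list tells outer from inner photoreceptors was not tested. The labels do not say whether the libraries came from separate groups of flies, so the SDs measure the spread between these libraries, which may be technical.

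All 6 genes were detected, at levels in CPM that spanned more than 3 orders of magnitude. Per kb of gene span the range was narrower, from 0.848 to 301 CPM per kb. Each gene had at least 10 counts in every library (6 of 6), as did 41.6% of all genes counted, 5802 in total. Atpalpha and nrv3 ranked 14 and 43 among the expressed genes by summed counts. In contrast, para ranked 1087, nrv2 1088, Ih 1787 and nrv1 4417. The abundant pair thus consisted of the alpha subunit and a single beta subunit.

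**Figure D1:**
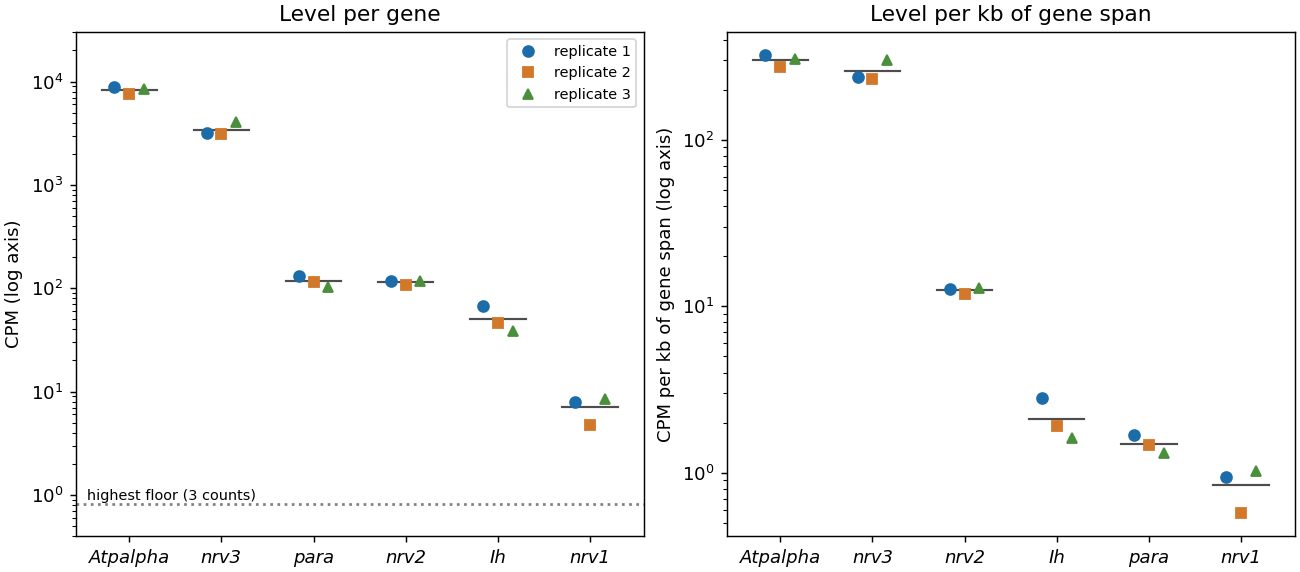
Level of each gene in the 3 shSet2 libraries, as CPM (left) and as CPM per kb of gene span (right), on log axes, where each point is a library and each bar the mean. Atpalpha and nrv3 stand at 8281 and 3434 CPM, para and nrv2 at 116 and 114, and nrv1 lies lowest but above the floor of 3 counts.

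Atpalpha (FBgn0002921), the catalytic alpha subunit, lies at chr3R:20948714-20976239 in Release 6, the assembly of the dm6 build named in the processing notes. It had 32781, 28511 and 41548 counts in replicates 1, 2 and 3, or 8882, 7542 and 8420 CPM. The mean was 8281 ± 680 CPM (SD, n = 3), highest in replicate 1 and lowest in replicate 2. The highest library exceeded the lowest by a factor of 1.18. Atpalpha took 0.828% of each library's counts on average. By summed counts it stood directly below ninaE, which encodes the major rhodopsin Rh1, and directly above ninaC, which encodes a myosin of the rhabdomere. Its SD of log2(CPM + 1) was 0.12, equal to the median of 0.12 over the 33 expressed genes with mean CPM within 2-fold of its own. Without replicate 2 this SD was 0.05. No other gene in the RefSeq table overlaps its span.

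The beta subunits were counted very unequally. In the fly nervous system nrv3 is the beta subunit of neurons, whereas nrv2 is widely used as a marker of glia and also acts at epithelial septate junctions. The third gene, nrv1, is known mainly from tissues outside the nervous system. These assignments are background from earlier work and were not tested with these libraries.

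The gene nrv3 (FBgn0032946, chr2L:21380000-21393319) had 11748, 11701 and 19859 counts, or 3183, 3095 and 4024 CPM. Replicate 3 stood above the other two, which were nearly equal. The mean was 3434 ± 513 CPM, and without replicate 3 it was 3139. The spread of nrv3 on the log2 scale was 0.21, set beside a median of 0.10 over the 87 expressed genes with mean CPM within 2-fold of its own. It fell to 0.03 between replicates 1 and 2 alone. Reads on nrv3 therefore varied more than those on most genes of its abundance, with replicate 3 farthest from the other libraries.

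The gene nrv2 (FBgn0015777, chr2L:6789770-6798862) had 429, 410 and 582 counts. This gave 116, 108 and 118 CPM, a mean of 114 ± 5.05 CPM. Its coefficient of variation of 4.42% was no larger than the 4.65% that read counting alone would give. The level of nrv2 thus did not vary detectably between the libraries at this depth. Its log2 SD was 0.06, and 0.01 without replicate 2.

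Its neighbour nrv1 (FBgn0015776, chr2L:6778555-6786861), 2908 bp away, was the least counted of the 6 genes. With 29, 18 and 42 counts, it stood at 7.86, 4.76 and 8.51 CPM, a mean of 7.04 ± 2.0 CPM. Replicate 2 was lowest, and its exact 95% Poisson interval of 2.82 to 7.53 CPM overlapped that of replicate 1, 5.26 to 11.3 CPM. The nearest gene on the other side, CG17378, ends 110 bp away and had 1024, 1124 and 1525 counts, and whether any of its reads reached nrv1 was not tested. Counting alone would give a coefficient of variation of 19.5%, against 28.4% observed. The SD of nrv1 on the log2 scale was 0.39 with all 3 libraries and 0.07 without replicate 2. Leaving out the value farthest from the others always lowers the SD of 3 values, so this does not mark replicate 2 as an outlier. Since nrv1 and nrv2 are related genes and the handling of reads shared between related genes is not stated, a small number of reads may be assigned to the wrong one of the pair. The intervals cover counting error within a library only. No molecular identifiers were used here, so reads duplicated during amplification may make them too narrow.

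Of the counts on the 3 beta subunit genes, 96.6% ± 0.36 (SD, n = 3) fell on nrv3, 3.25% ± 0.36 on nrv2 and 0.197% ± 0.045 on nrv1. In replicate 1, nrv3 held 96.2% of the 12206 beta subunit counts, with a 95% Wilson interval from 95.9% to 96.6%. It held 96.5% of 12129 counts (96.1% to 96.8%) in replicate 2. The share rested on more reads in replicate 3, where it was 97.0% of 20483 counts (96.7% to 97.2%). For nrv2 the shares were 3.51%, 3.38% and 2.84% in the same order. Replicate 3 had the highest nrv3 share and the lowest nrv2 share, and its intervals did not overlap those of replicate 1. The level of nrv2 itself was not lower in replicate 3 (116, 108 and 118 CPM), whereas that of nrv3 was highest there (4024 CPM). With counts divided by the length of each gene's span, nrv3 held 95.01% ± 0.51, nrv2 4.68% ± 0.51 and nrv1 0.311% ± 0.071. Division by span did not alter the order of the 3 genes.

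**Figure D2:**
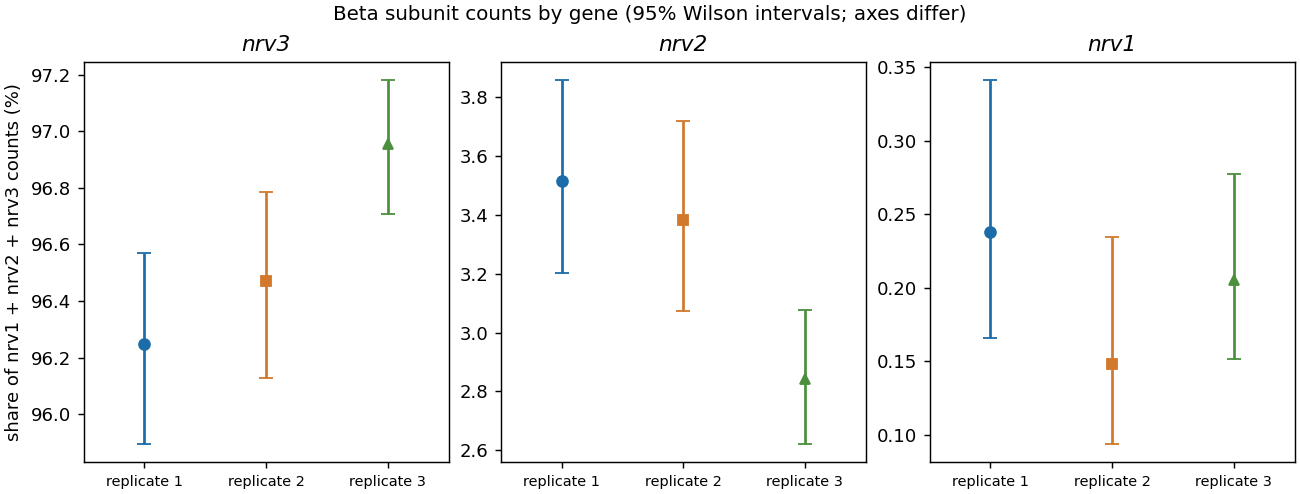
Share of the summed nrv1, nrv2 and nrv3 counts that fell on each gene, in percent, by library; bars are 95% Wilson intervals and the 3 axes differ in scale and do not start at 0. The share of nrv3 lies between 96.2% and 97.0%, that of nrv2 between 2.84% and 3.51% and that of nrv1 between 0.148% and 0.238%.

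The balance of beta to alpha subunit reads was next compared within each library. For every 100 counts on Atpalpha there were 37.2, 42.5 and 49.3 counts on the beta subunit genes in replicates 1, 2 and 3, a mean of 43.0 ± 6.05. This corresponds to a log2 ratio of -1.23 ± 0.20, below 0 in each of the 3 libraries. Per kb of gene span the log2 ratio was -0.16 ± 0.20, with replicates 1 and 2 at -0.35 and -0.16 and replicate 3 at 0.05. The ratio per kb thus lay within 1 SD of 0. The span includes introns, and neither the exon lengths nor the share of intronic reads in these counts were used here, so the ratio of transcripts is not fixed by either scale. Atpalpha was highest in replicate 1 and nrv3 in replicate 3, and the ratio was lowest and highest in those libraries.

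The sodium channel gene para (FBgn0285944, chrX:16455027-16533096) encodes the principal pore-forming subunit of voltage-gated sodium channels in fly neurons. It spans 78.1 kb, and RefSeq lists 60 transcripts for it. It had 483, 435 and 506 counts, or 131, 115 and 103 CPM, with a mean of 116 ± 14.2 CPM. Replicate 1 was highest and replicate 3 lowest, by a factor of 1.28. The coefficient of variation of 12.2% exceeded the 4.6% of read counting. The gene Cnx14D lies within the span of para and had 14, 15 and 16 counts, so reads assigned to it were few. The nearest gene outside it, eIF4H1, lies 54 bp away and had 309, 293 and 403 counts. On the CPM scale para and nrv2 were equal within their spread (log2 ratio 0.02 ± 0.20, above 0 in 2 of 3 libraries).

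The Ih channel gene (FBgn0263397, chr2R:14276130-14300095) had 249, 173 and 192 counts. This came to 67.5, 45.8 and 38.9 CPM, a mean of 50.7 ± 14.9 CPM. Replicate 1 stood apart: its exact 95% Poisson interval of 59.3 to 76.4 CPM did not overlap those of replicate 2 (39.2 to 53.1) or replicate 3 (33.6 to 44.8). Without replicate 1 the mean was 42.3 CPM. The coefficient of variation was 29.4%, against 7.07% from counting. On the log2 scale the SD was 0.40, close to the 0.39 of the far less counted nrv1, and the median over the 1291 expressed genes within 2-fold of its level was 0.14. Its nearest neighbour tej, 7 bp away, had only 14, 5 and 9 counts. For Ih, replicate 1 lay farthest from the other libraries, and the SD was 0.16 between replicates 2 and 3.

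**Figure D3:**
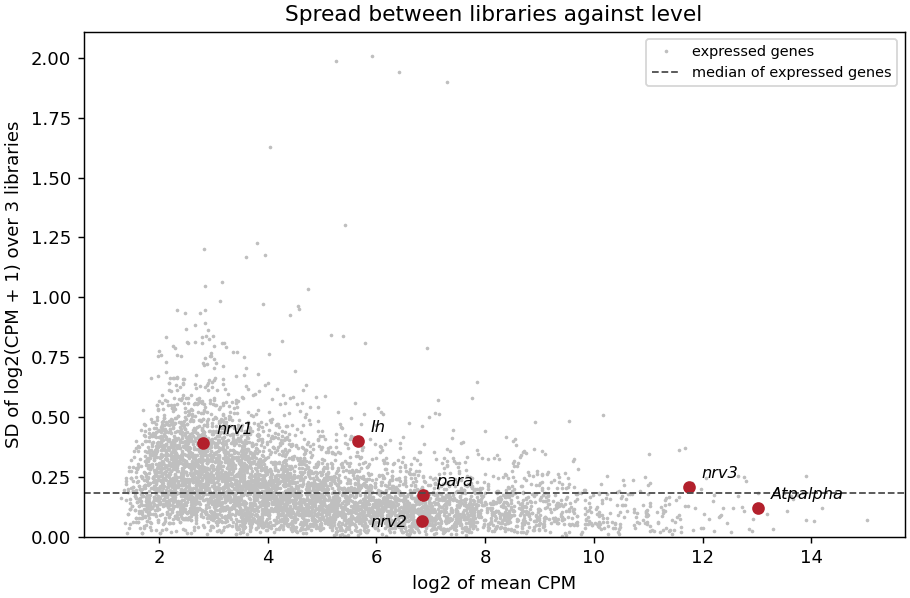
SD of log2(CPM + 1) over the 3 libraries against log2 of the mean CPM for the 5802 expressed genes (grey) and the 6 genes examined (red), with the median of 0.18 as a dashed line. Ih at 0.40 and nrv3 at 0.21 lie above the medians of 0.14 and 0.10 for genes of like level. So do nrv1 at 0.39 and para at 0.17, against medians of 0.26 and 0.12. In contrast, nrv2 at 0.06 (0.01 without replicate 2) lies below the median of 0.12 for its own level.

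Levels were compared between genes per kb of gene span. The order was Atpalpha (301 ± 24.7 CPM per kb), nrv3 (258 ± 38.5), nrv2 (12.6 ± 0.56), Ih (2.12 ± 0.62), para (1.49 ± 0.18) and nrv1 (0.848 ± 0.24). Atpalpha exceeded nrv3 in each of the 3 libraries, by a log2 ratio of 0.23 ± 0.21 (from 0.02 to 0.43) that is little more than its SD, and their ranges overlapped, at 274 to 323 and 232 to 302 CPM per kb. The step from nrv3 to nrv2 was the largest, 20.4-fold (log2 ratio 4.35 ± 0.17). Next came the step from nrv2 to Ih, 6.10-fold (2.61 ± 0.41). Ih exceeded para in each library (0.48 ± 0.24), yet the ranges of the pair over the libraries overlapped, at 1.62 to 2.82 and 1.31 to 1.68 CPM per kb. The lowest step, from para to nrv1, was 1.80-fold (0.85 ± 0.50) and their ranges did not overlap. With 3 libraries an exact sign-flip test of such a ratio cannot give a two-sided p below 0.25, so none is given. A wide span such as that of para lowers its value per kb, since counted exons may cover a small part of it. On the CPM scale, where length is not taken into account, para stood above Ih (1.23 ± 0.24 on the log2 scale).

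Marker genes of other cell types were summed in each library and set beside the less abundant genes. Markers of other neurons, which include the acetylcholine, GABA, glutamate and monoamine genes VAChT, ChAT, Gad1, VGlut, ple and Vmat, passed the count minimum in 6 of 6 cases. Their summed level was 174, 123 and 131 CPM in replicates 1, 2 and 3. Each of the 6 was highest in replicate 1, as were 35.4% of all expressed genes. Glial markers passed in 6 of 7 cases and summed to 166, 135 and 118 CPM, with the glial transcription factor gene repo at 4.06, 4.23 and 3.04 CPM. Of these 7 glial markers, 5 were highest in replicate 1. Ih and para were thus highest in the library in which both marker lists were highest. For para, however, the Poisson intervals of replicates 1 and 2 overlapped (119 to 143 and 105 to 126 CPM). Those of Ih overlapped in replicates 2 and 3, so no order of all 3 libraries was read for either gene. Most of the glial sum came from Eaat1 (85.1, 75.9 and 64.0 CPM) and Gs2 (51.2, 37.3 and 34.0 CPM), while repo and wrapper were highest in replicate 2. The part of other cells in the reads on Ih and para was not tested. For nrv2, whose 3 levels did not differ beyond counting error, no order of libraries was read.

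Muscle markers summed to 50.7, 13.2 and 18.8 CPM, with Act88F at 0 counts in every library. Fat body markers summed to 786, 643 and 588 CPM, with Fbp1 at 0. Nearly all of this sum came from apolpp, at 776, 618 and 543 CPM, while Lsp2 ran the other way, at 10.0, 25.4 and 44.8 CPM. Hemocyte markers reached 27.0 to 34.0 CPM and lens-secreting cell markers 5.03 to 8.40 CPM. Opsins of inner photoreceptors, Rh3 to Rh6, passed in 4 of 4 cases and summed to 36.5 to 51.2 CPM. All of these sums were below the level of nrv3 in every library. A sum of a few markers does not give the part of a cell type in the reads on nrv3, which was not tested. In bulk nuclei, fewer cells of a type and less RNA per cell cannot be told apart.

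**Figure D4:**
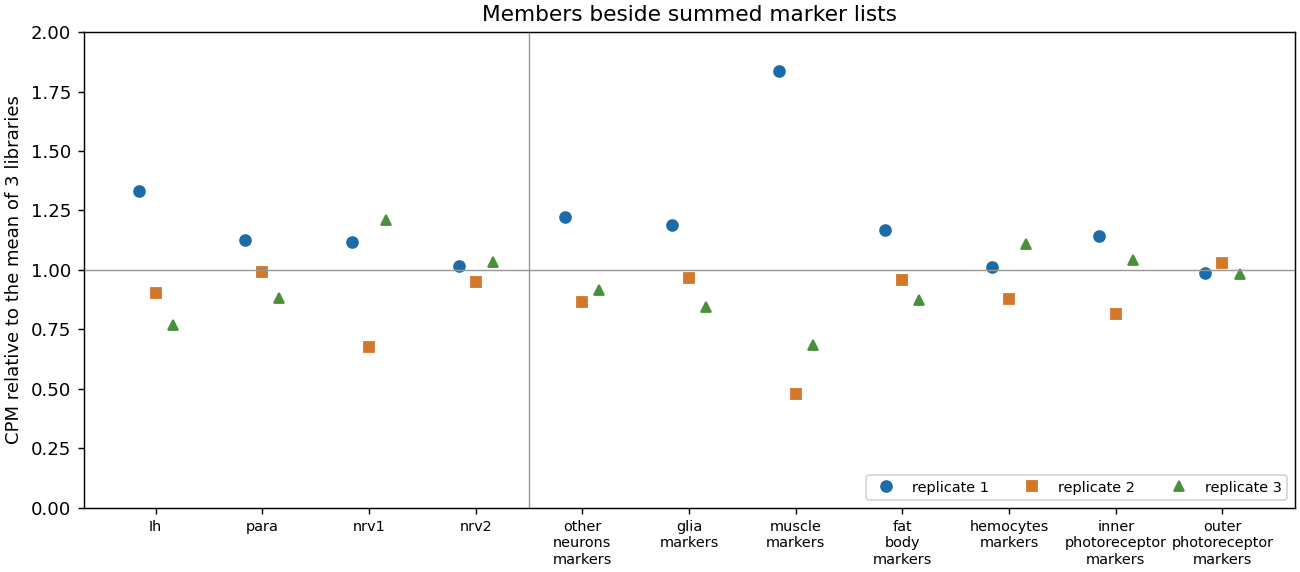
Level of Ih, para, nrv1 and nrv2 and summed level of 7 marker lists in each library, relative to the mean of the 3 libraries. Replicate 1 is highest for Ih and para and for the other-neuron, glial, muscle, fat body (through apolpp) and inner photoreceptor lists. By contrast, nrv2 and the photoreceptor list labelled outer stay near 1.

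Genes related to the 6 were then examined by family. Of 30 related genes found in the table, 24 (80.0%) had at least 10 counts in every library, beside 41.6% of all genes counted. The lists were chosen with earlier results of these data known, so nothing was read from this difference. The listed name CG3701 could not be matched to a single gene and has no value.

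Among relatives of the pump, the alpha subunit gene JYalpha, known for its role in sperm, had 2, 2 and 0 counts and so lay under the floor in each library. The beta-like genes CG5250 and CG11703 had 0 counts in every library, and CG33310 had 4, 3 and 6. Atpalpha was thus the only alpha subunit gene of those measured with counts above the floor. NKAIN, whose product binds the pump's beta subunit, was at 403, 428 and 432 CPM (mean 421 ± 15.7). Per kb of gene span it stood at 59.7 CPM per kb, between nrv2 at 12.6 and nrv3 at 258.

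All 6 genes of the sodium channel family and its auxiliary subunits passed the count minimum. Teh2, an auxiliary subunit gene of the tipE family, was the highest, at 573, 602 and 791 CPM (mean 655 ± 119). Per kb of gene span Teh2 stood at 72.5 CPM per kb, against 1.49 for para. Its relatives Teh4 and Teh3 were at 105 ± 13.6 and 101 ± 9.68 CPM and tipE, the founding member, at 29.7 ± 2.02. Teh1 was lowest, with 12, 13 and 29 counts. Teh2, Teh3, Teh4 and tipE lie close together on 3L and the span of Teh3 falls within that of Teh2, so reads on the overlapping pair are uncertain. NaCP60E, a relative of para that conducts calcium, was at 104 ± 9.12 CPM, or 3.45 CPM per kb of span.

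The sodium leak channel was expressed with its partners. The channel gene na (narrow abdomen) was at 55.6 ± 2.25 CPM, and Mid1, listed as Nlf-1 and known for moving the channel to the membrane, at 55.2 ± 4.77 CPM. The auxiliary genes unc80 and unc79 were at 33.9 ± 2.5 and 29.7 ± 4.55 CPM. All 4 passed the count minimum, and their summed level was 177, 182 and 165 CPM.

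Exchangers and cotransporters, all sodium-coupled except the potassium/chloride cotransporter kcc (426 CPM, passed), passed the count minimum in 10 of 11 cases. Calx, the sodium/calcium exchanger that removes the calcium admitted by light, was the highest at 4454, 4227 and 4673 CPM (mean 4452 ± 223). Per kb of gene span it stood at 119 CPM per kb, below both nrv3 and Atpalpha. Calx is the gene that follows Atpalpha on 3R, 1943 bp away. The lowest to pass was NKCC, with 19, 18 and 10 counts, and the exception was zyd, with 11, 7 and 13. Nhe2, a sodium/hydrogen exchanger, varied most among the abundant ones, at 87.0, 114 and 174 CPM. Ndae1, an anion exchanger driven by sodium, was likewise highest in replicate 3, at 562 CPM against 364 and 375. Like Nhe2 and Ndae1, nrv3 was highest in replicate 3. The Poisson intervals of nrv3 in replicates 1 and 2 overlapped, at 3126 to 3241 and 3040 to 3152 CPM. No order of those libraries was therefore read for nrv3. For both nrv3 and Ndae1, replicate 3 stood above the other libraries, which were close to each other. The same held for Teh2, at 573, 602 and 791 CPM. Replicate 3 was highest for 34.5% of all expressed genes, so nothing was read from this likeness.

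Cyclic nucleotide-gated channels are the closest relatives of Ih listed here. They passed in 3 of 4 cases, led by Cngl at 47.1 ± 8.46 CPM, while CngA had 4, 5 and 5 counts. Cngl was lowest in replicate 3, as was Ih, although the Poisson intervals of Ih in replicates 2 and 3 overlapped. Calx, NKAIN, NaCP60E, Nhe2 and Ndae1 overlap other genes in the RefSeq table, so their counts are uncertain where reads were shared. Across the 24 related genes that passed, the median SD of log2(CPM + 1) was 0.16, beside 0.18 for all expressed genes. Replicate 3 was highest for 14 of these 24 and for 34.5% of all expressed genes, a description of 1 library.

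**Figure D5:**
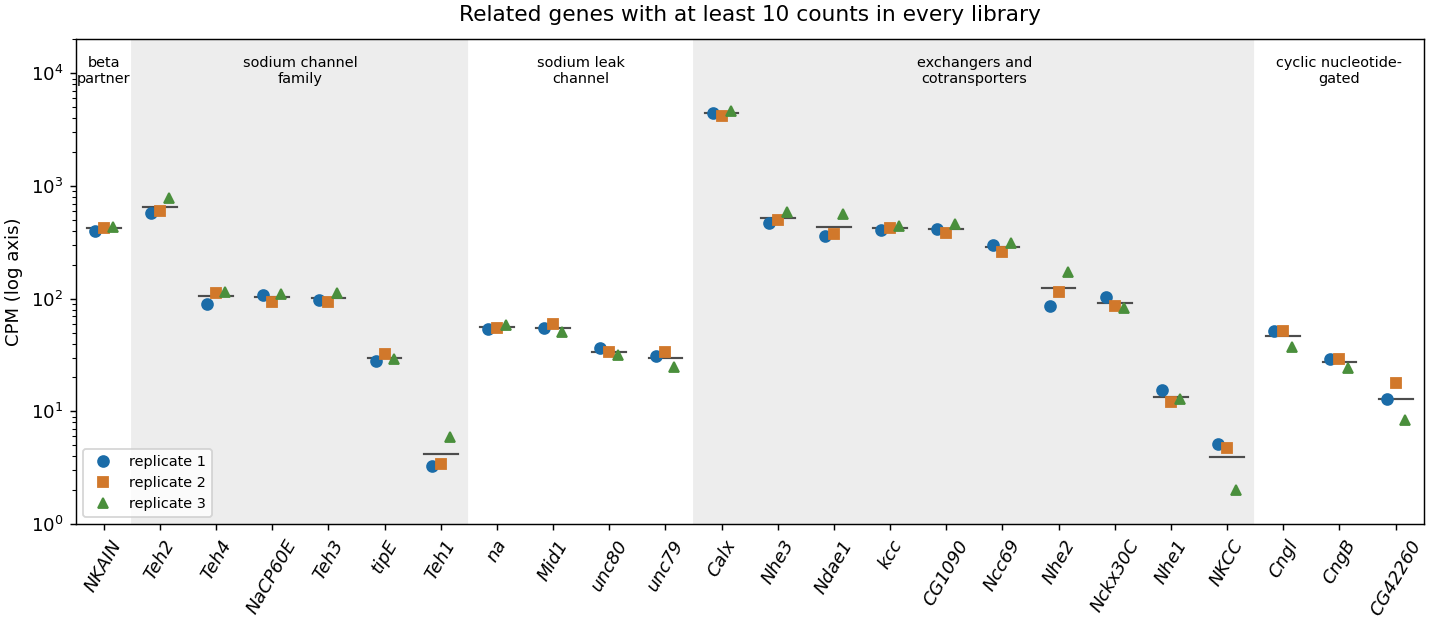
Level in CPM, on a log axis, of the 24 related genes with at least 10 counts in every library, grouped by family; points are libraries and bars are means. Calx at 4452 CPM and Teh2 at 655 CPM stand highest in the exchanger and sodium channel groups, and Teh1 and NKCC lie lowest.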

How the data were processed

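Nuclear RNA-seq counts of 3 shSet2 libraries were used. The authors deposited whole-number read counts for 13947 genes, without normalization. The submitters' processing notes name Trimmomatic, Bowtie2, STAR, SAMtools, deepTools and DESeq2 and the builds dm6 and BDGP6, with no role for each. The counting tool, the annotation release and the use of strand are not given in the sources used here. Of the deposited table, 1 blank row was left out and 0 columns belonged to other samples. Libraries were made from 10 ng of RNA.

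TMM factors were computed with edgeR 4.0.16 in R 4.3.3 on genes with at least 10 counts in every library. Size factors came from DESeq2 1.42.0 as an alternative, beside unscaled totals, count minimums of 1 and 50, a pseudocount of 0.1 CPM in place of 1, and each replicate left out. Summaries used Python 3.11.15, numpy 2.4.6, pandas 2.3.3 and scipy 1.17.1. The scaling and dispersion steps were also run on simulated counts with the same biological coefficient of variation for every gene. That run did not test the spread of single genes, and its outcome is not given here. In the shSet2 libraries the common biological coefficient of variation was 0.132.

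Symbols matched 13884 identifiers. Gene spans came from NCBI RefSeq (Release 6 plus ISO1 MT). Coding lengths and sequences were not used here, so gene span replaced the coding length first planned. The text names the 6 genes, Set2, overlapping genes, genes next in rank, and the highest, the lowest and any undetected genes of each family list. Other genes named were chosen after their values were seen. Members and lists were chosen with earlier results of these data known.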

Additional observations from a re-analysis of the deposited data

How the results depend on the processing

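No paired analysis was possible because all counts come from 1 group of 3 libraries. The mean CPM of each of the 6 genes moved by less than 1 SD under DESeq2's size factors and under unscaled totals. Leaving out 1 of 3 libraries cannot move a mean by 1 SD when the scaling is kept, so those fits say little about stability. Leaving out the library farthest from the others always lowers the SD, so the smaller SDs given without it do not by themselves mark an outlier. Division of counts by gene span, chosen after seeing the data, gave beta subunit shares of 95.01% for nrv3, 4.68% for nrv2 and 0.311% for nrv1, and a beta to alpha log2 ratio of -0.16. The cause of each shift is the difference in span between the genes. All 6 genes passed a count minimum of 1, and 5 passed a minimum of 50, with nrv1 the exception. On the CPM scale para and nrv2 exchanged places without replicate 1 and without replicate 2. Division by coding length was not run. Depth limits nrv1, with at most 42 counts in a library.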
